A study of Mus musculus with 8 samples.

Results

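The 88 genes described here stood far higher in CypD knockout (KO) B16F10 melanoma cells than in every other library of the series. They were chosen from the 55414 genes of the expression table by 2 limits: the lower of the 2 CypD KO libraries had at least 5 TPM, and it was at least 4 times the highest of the 6 other libraries. TPM is the level of a transcript after scaling by its length and by the total of its library. Predicted genes, miRNAs, small nucleolar RNAs, Y RNAs and entries without a symbol were left out by the start of their names, which removed *Gm50321* and 1 entry that carried only an identifier from the 90 that met the limits. The CypD KO values chose the genes, so their height in CypD KO is given as a description with no test. The same limits applied to each other group found 0 genes for WT, 3 for Control (*Aire*, *Slc16a3* and *Kbtbd11*) and 2 for the libraries labelled CypD OE (*Hapln1* and *Mme*).

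RNA-seq was performed on B16F10 cells, a mouse melanoma line, in 8 libraries of 4 groups with 2 libraries each, all after 24 h of culture. WT cells and CypD KO cells, in which *Ppif* was disrupted with CRISPR/Cas9 and puromycin-resistant clones were taken, were kept at 21% O2. Control cells, stably transfected with empty pcDNA and selected with G418, and cells labelled CypD OE, stably transfected with pcDNA carrying *Ppif*, were kept at 1% O2. Control therefore differed from WT in both oxygen and vector, and these cannot be told apart. CypD KO cells differed from WT cells in the disruption of *Ppif* and in the selection and cloning that went with it. How many clones stand behind a library, and whether the libraries of a group came from separate cultures, is not given in the sources used here, so p-values measure only the spread between these libraries.

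Cyclophilin D (CypD), the product of *Ppif*, is a peptidyl-prolyl isomerase of the mitochondrial matrix that promotes opening of the permeability transition pore. In melanoma, cells can lose pigment genes and gain secreted matrix proteins, integrins and actin-linked proteins, a program known from epithelial-mesenchymal transition (EMT). The genes found here include members of the plasminogen system, in which serine proteases bound at the cell surface cut matrix and serpins block them, and of the TGF-beta system, whose ligand is stored in the matrix in latent form. A further part is made of interferon-stimulated genes, which cells turn on after sensing foreign nucleic acid or interferon. Many of them share a promoter element, the interferon-stimulated response element (ISRE).

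*Ppif* itself (chr14:25694522-25707332 in GRCm39) was at 10.4 and 12.1 TPM in CypD KO and at 50.7 and 49.99 TPM in WT. The CypD KO level was lower (log2 difference -2.07 ± 0.073 (SE), adjusted p = 3.81e-06). In the libraries labelled CypD OE *Ppif* was at 50.3 and 49.3 TPM against 44.6 and 42.2 TPM in Control, and this difference did not pass the test (log2 difference 0.19 ± 0.073 (SE), adjusted p = 0.0794), so these libraries are named here by their label. The 7 melanocyte markers *Mitf*, *Tyr*, *Tyrp1*, *Dct*, *Pmel*, *Mlana* and *Sox10* were each at 1 TPM or more in CypD KO, and their summed level ranged from 12433 to 20984 TPM over the 8 libraries. The summed markers of T and NK cells, B cells, erythroid, endothelial and keratinocyte cells were at most 5.57 TPM in any library. TPM keeps no read number, so the depth of the libraries is unknown here and no counting interval is given.

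Summed over the 88 genes, the level was 5730 and 5549 TPM in the CypD KO libraries and 496 to 633 TPM in the other 6. Mean CypD KO levels ran from 5.52 to 1260 TPM with a median of 19.4 TPM, and 14 genes exceeded 100 TPM. The ratio of the lower CypD KO library to the highest other library ran from 4.02 to 84.0 with a median of 6.25; it was under 5 for 31 genes, at least 10 for 25 and at least 30 for 8. By group mean, labelled CypD OE was the highest of the other groups for 33 genes, Control for 30 and WT for 25. Of the 88 genes, 42 were at 1 TPM or more in all 6 other libraries, 18 were under 1 TPM in all 6, and 0 were listed at 0 in all 6. The 2 CypD KO libraries differed by a factor with a median of 1.07. By GENCODE biotype, 86 genes code for proteins, *Wincr1* is a long noncoding RNA and *Olfr289-ps1* is a pseudogene.

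**Figure D1:**
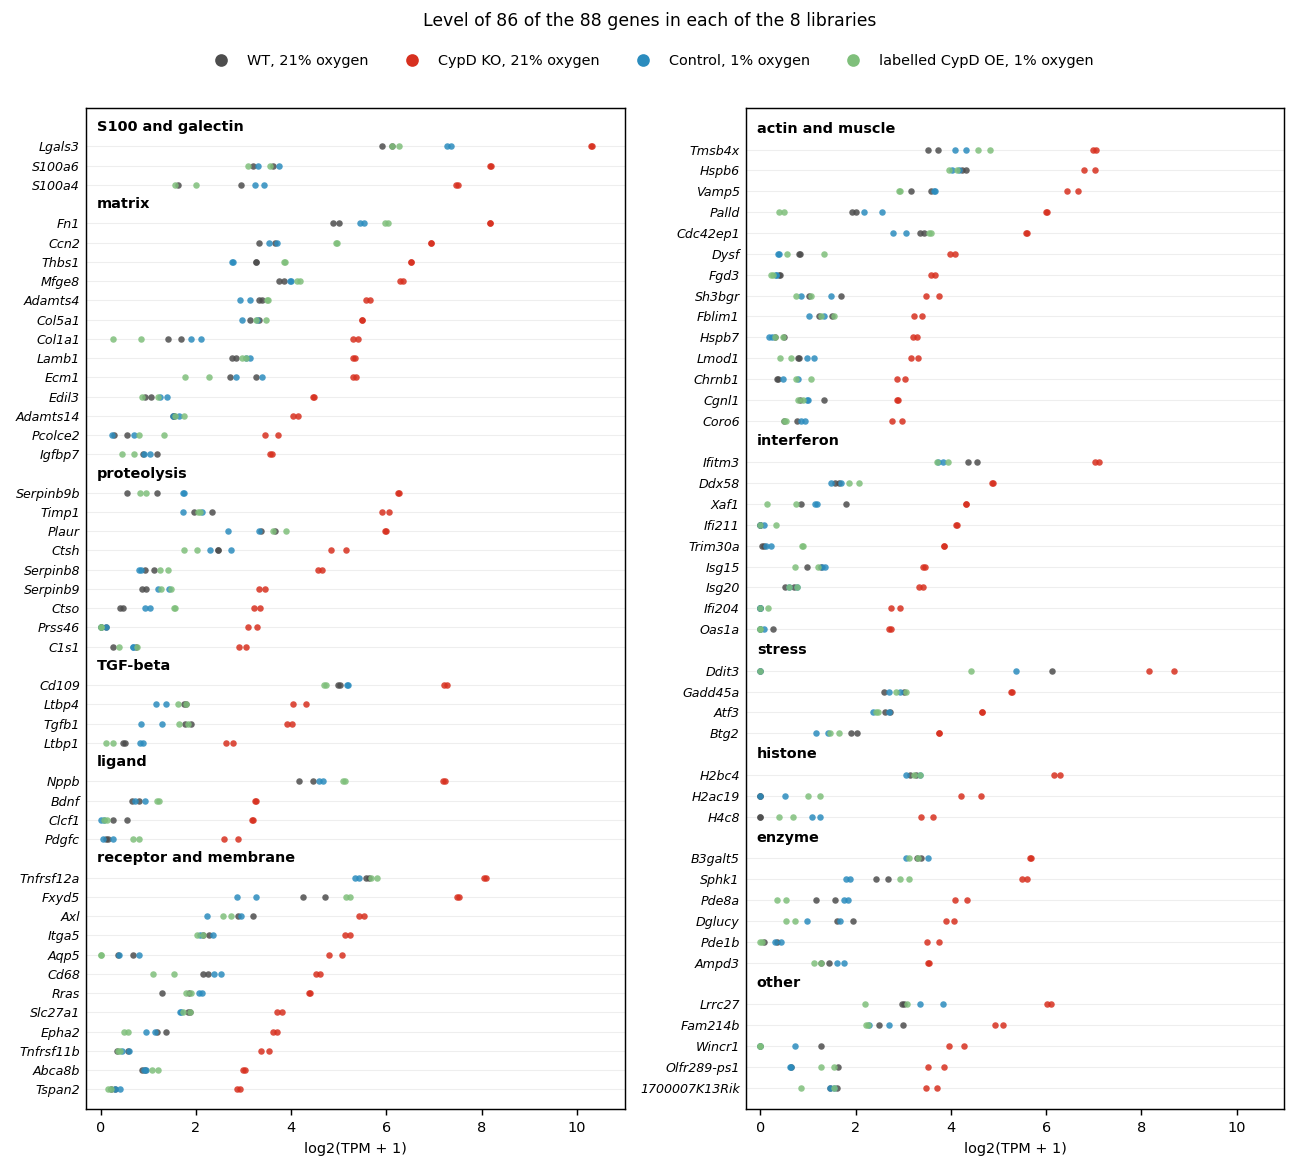
Level of 86 of the 88 genes on the log2(TPM + 1) scale, with 1 point for each of the 8 libraries, coloured by group and sorted within classes by the mean CypD KO level. The CypD KO points (red) lie to the right of all 6 other points in every row because the rule chose the genes that way, and the spread of the other 6 points differs from row to row and is widest for *Ddit3*, followed by *Fxyd5* and *Palld*.

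Just inside the 4-fold limit were *Ccn2* with a ratio of 4.02, *Btg2* with 4.04 and *Ecm1* with 4.05, and just outside it were *Ccdc9b* with 3.91, *Tmod1* with 3.87 and *Myof* with 3.87. *Ccdc9b* was at 18.2 and 17.6 TPM in CypD KO and 2.33 to 4.5 TPM elsewhere, and *Tmod1*, tropomodulin 1, at 46.2 and 47.9 TPM and 4.48 to 11.9 TPM. Just under the 5 TPM limit were *Angpt4* with 4.99 TPM in its lower CypD KO library, *Acta2* with 4.96 TPM and *Wnt9a* with 4.89 TPM.

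By function, the largest classes were secreted matrix proteins (14 genes), proteins of actin, adhesion and muscle (14), receptors and other membrane proteins (12), proteases, protease inhibitors and the urokinase receptor (10) and interferon-stimulated genes (9). Enzymes (6), TGF-beta ligand, latency and co-receptor genes (4), other secreted ligands (4), stress genes (4), S100 proteins and galectin (3), histones (3) and 5 others made up the rest. These classes were assigned by hand after the gene names were known, and so describe the list without testing it.

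The 3 S100 and galectin genes were among the most abundant. *Lgals3*, galectin 3, a lectin that binds beta-galactosides on matrix and cell surface glycoproteins, was at 1270.3 and 1250.1 TPM in CypD KO, 67.96 and 59.4 in WT, 154 and 163 in Control and 68.1 and 76.2 in labelled CypD OE. It was the gene with the highest CypD KO level, 19.8 times the WT mean, and among the other groups Control lay above WT and labelled CypD OE without overlap. *S100a6*, a calcium-binding protein, was at 288 and 290.4 TPM in CypD KO, 11.2 and 8.22 in WT, 12.4 and 8.91 in Control and 7.5 and 10.8 in labelled CypD OE. *S100a4*, its neighbour on chromosome 3 and a calcium-binding protein known from motile cells, was at 176 and 179.6 TPM in CypD KO, 6.68 and 2.07 in WT, 9.76 and 8.51 in Control and 1.95 and 3.02 in labelled CypD OE. The CypD KO level of *S100a4* was 40.7 times the WT mean, although the WT libraries themselves lay far apart.

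Matrix genes included the adhesive glycoprotein fibronectin and 1 of its receptor chains. *Fn1*, fibronectin, was at 289 and 286 TPM in CypD KO, 28.4 and 31.1 in WT, 42.9 and 44.99 in Control and 64.2 and 62 in labelled CypD OE. *Itga5*, the integrin chain that pairs with beta 1 to bind fibronectin, was at 36.5 and 34.2 TPM in CypD KO, 3.86 and 3.41 in WT, 3.23 and 4.17 in Control and 3.07 and 3.47 in labelled CypD OE. Both were higher in each CypD KO library than elsewhere, but among the other groups *Fn1* rose in steps from WT to Control to labelled CypD OE while the *Itga5* values overlapped. *Thbs1*, thrombospondin 1, which can activate latent TGF-beta, was at 91.1 and 91.1 TPM in CypD KO, 8.62 and 8.59 in WT, 5.8 and 5.83 in Control and 13.7 and 13.4 in labelled CypD OE. *Ccn2*, connective tissue growth factor and a classical target of the YAP-TEAD factors, was at 121 and 122 TPM in CypD KO, 9.01 and 11.7 in WT, 10.6 and 12.1 in Control and 29.9 and 30.02 in labelled CypD OE. The labelled CypD OE libraries were the highest of the other groups for both, and they set the ratio of *Ccn2* just above the limit. *Col1a1*, the alpha 1 chain of type I collagen, was at 38.5 and 41.1 TPM in CypD KO, 2.22 and 1.66 in WT, 3.29 and 2.72 in Control and 0.2 and 0.81 in labelled CypD OE. *Col5a1*, the alpha 1 chain of type V collagen, which is built into type I fibrils, was at 43.9 and 44.1 TPM in CypD KO, 7.8 and 9.06 in WT, 6.82 and 8.77 in Control and 10.1 and 8.6 in labelled CypD OE. The fibroblast markers as a list, to which *Col1a1* belongs, summed to 76.9 and 76.5 TPM in CypD KO and to 11.2 to 26.3 TPM elsewhere, while *Dcn* and *Thy1* of that list were at 0 in all 8 libraries. Nearly all of the CypD KO sum came from *Col1a1* and from *Postn*, periostin, at 34.8 and 31.2 TPM in CypD KO and 8.04 and 8.07 TPM in WT. Of the other markers, 2 were lower in CypD KO than in WT by limma: *Col1a2*, the partner chain of *Col1a1* in type I collagen, was at 1.09 and 2.17 TPM against 9.03 and 6.87 TPM (adjusted p = 0.00176), and *Pdgfrb*, a receptor of platelet-derived growth factor, at 1.07 and 1.25 TPM against 2.5 and 2.5 TPM (adjusted p = 0.00794). In bulk RNA more cells of a type and more RNA per cell cannot be told apart, and the part of other cells in this result was not tested. The rest of the class is made of other secreted and basement membrane proteins. *Ecm1*, a secreted glycoprotein, was at 39.9 and 38.1 TPM in CypD KO, 5.58 and 8.61 in WT, 9.43 and 6.18 in Control and 3.85 and 2.42 in labelled CypD OE. *Lamb1*, a laminin beta chain, was at 39.7 and 38.5 TPM in CypD KO, 6.21 and 5.74 in WT, 7.25 and 7.82 in Control and 6.78 and 7.3 in labelled CypD OE. *Adamts4*, a protease that cleaves aggrecan, was at 49.5 and 46.8 TPM in CypD KO, 9.46 and 9.1 in WT, 6.66 and 7.79 in Control and 10.3 and 10.4 in labelled CypD OE. None of these last 3 genes was near 0 in any group. *Mfge8* and *Edil3*, both secreted ligands of integrins, *Adamts14* and *Pcolce2*, which act in procollagen processing, and *Igfbp7* were also of this class, with ratios between 4.51 for *Mfge8* and 12.9 for *Edil3*.

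The proteolysis class held the largest ratio. *Prss46*, a serine protease of the trypsin family, was at 8.75 and 7.56 TPM in CypD KO, 0.09 and 0 in WT, 0 and 0.09 in Control and 0 and 0 in labelled CypD OE, a ratio of 84.0 set by values near 0. *Serpinb9b* was at 75.3 and 74.4 TPM in CypD KO, 0.47 and 1.26 in WT, 2.32 and 2.36 in Control and 0.93 and 0.78 in labelled CypD OE. *Serpinb9*, an intracellular inhibitor of granzyme B and the neighbour of *Serpinb9b* on chromosome 13, was at 10 and 9.09 TPM in CypD KO, 0.93 and 0.82 in WT, 1.7 and 1.3 in Control and 1.41 and 1.79 in labelled CypD OE. *Serpinb8* was at 24.1 and 22.5 TPM in CypD KO, 0.9 and 1.17 in WT, 0.76 and 0.81 in Control and 1.38 and 1.68 in labelled CypD OE. These 3 clade B serpins have paralogs in tandem, between which reads may be divided, so their single values are uncertain. *Timp1*, an inhibitor of metalloproteinases, was at 59.2 and 65.3 TPM in CypD KO, 4.03 and 2.91 in WT, 2.3 and 3.36 in Control and 3.14 and 3.26 in labelled CypD OE. *Plaur*, the urokinase receptor, was at 61.4 and 62.4 TPM in CypD KO, 11.6 and 9.32 in WT, 5.37 and 9.02 in Control and 13.8 and 11.3 in labelled CypD OE. *Ctso*, the lysosomal cathepsin O, was at 8.34 and 9.21 TPM in CypD KO, 0.38 and 0.33 in WT, 1.05 and 0.92 in Control and 1.95 and 1.92 in labelled CypD OE. Cathepsin H (*Ctsh*) and the complement protease *C1s1* had ratios of 4.86 and 9.26.

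Of the 4 genes of the TGF-beta system, *Cd109* was the most abundant in CypD KO. *Tgfb1*, the ligand, was at 15.1 and 14.1 TPM in CypD KO, 2.42 and 2.74 in WT, 1.43 and 0.81 in Control and 2.15 and 2.56 in labelled CypD OE. *Ltbp4*, a latency protein that holds TGF-beta in the matrix, was at 18.9 and 15.4 TPM in CypD KO, 2.38 and 2.45 in WT, 1.25 and 1.59 in Control and 2.07 and 2.45 in labelled CypD OE. *Ltbp1*, another latency protein, was at 5.18 and 5.86 TPM in CypD KO, 0.42 and 0.39 in WT, 0.85 and 0.77 in Control and 0.19 and 0.09 in labelled CypD OE. *Cd109*, a membrane-anchored co-receptor for TGF-beta, was at 154 and 147 TPM in CypD KO, 30.7 and 31.4 in WT, 35.4 and 35.2 in Control and 24.9 and 25.6 in labelled CypD OE. For *Tgfb1* and *Ltbp4* Control was the lowest group, and for *Ltbp1* and *Cd109* it was labelled CypD OE.

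Receptors and membrane proteins were led by *Tnfrsf12a*, the TWEAK receptor Fn14, at 263 and 273 TPM in CypD KO, 46.5 and 48.8 in WT, 39.4 and 42.1 in Control and 50.5 and 54.6 in labelled CypD OE. In the annotation used, all 1965 exonic bases of *Tnfrsf12a* overlap *Hcfc1r1* on the opposite strand, which was itself at 84.1 and 85.4 TPM in CypD KO and at 16.02 to 27.5 TPM elsewhere. The strand setting of the counting is not given in the sources used here, so the reads of these genes may not be separable. *Fxyd5*, dysadherin, a regulator of the sodium pump, was at 178 and 182 TPM in CypD KO, 18.1 and 25.2 in WT, 8.64 and 6.27 in Control and 34.8 and 36.8 in labelled CypD OE. Its other groups were spread widely, with Control lowest and labelled CypD OE highest. *Aqp5*, a water channel, was at 32.4 and 26.7 TPM in CypD KO, 0.29 and 0.61 in WT, 0.31 and 0.75 in Control and 0 and 0 in labelled CypD OE. *Axl*, a receptor tyrosine kinase bound by GAS6 and known from undifferentiated melanoma, was at 45.03 and 41.98 TPM in CypD KO, 8.22 and 6.42 in WT, 3.69 and 6.74 in Control and 4.95 and 5.65 in labelled CypD OE. *Cd68*, a lysosomal glycoprotein also used as a macrophage marker, was at 21.9 and 23.3 TPM in CypD KO, 3.75 and 3.45 in WT, 4.81 and 4.2 in Control and 1.13 and 1.91 in labelled CypD OE. Over the 12 macrophage markers that include *Cd68* the sum was 25.3 and 26.7 TPM in CypD KO and 2.20 to 5.63 TPM elsewhere, and *Adgre1*, *Tyrobp*, *C1qa*, *C1qb* and *Cd14* were at 0 in all 8 libraries. Of the 12, 3 were at 1 TPM or more in CypD KO. *Tspan2*, a tetraspanin, was at 6.56 and 6.25 TPM in CypD KO, 0.23 and 0.16 in WT, 0.32 and 0.23 in Control and 0.17 and 0.11 in labelled CypD OE. *Epha2*, an ephrin receptor, *Tnfrsf11b*, the decoy receptor osteoprotegerin, *Rras*, a RAS-like GTPase, *Slc27a1*, a fatty acid transporter, and *Abca8b*, an ABC transporter, had ratios from 4.47 for *Slc27a1* to 17.9 for *Tnfrsf11b*.

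Secreted ligands outside the TGF-beta system were 4 in number. *Nppb*, brain natriuretic peptide, was the most abundant at 148 and 146 TPM in CypD KO, 17.1 and 21.1 in WT, 24.6 and 22.9 in Control and 34.2 and 33.1 in labelled CypD OE. *Bdnf*, brain-derived neurotrophic factor, was at 8.4 and 8.55 TPM in CypD KO, 0.74 and 0.58 in WT, 0.64 and 0.9 in Control and 1.33 and 1.28 in labelled CypD OE. *Clcf1*, a cytokine of the interleukin 6 family, had a ratio of 17.1, and *Pdgfc*, platelet-derived growth factor C, 6.73. All but *Nppb* were under 1 TPM in WT.

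Genes of actin, adhesion and muscle ranged from the abundant actin-monomer buffer *Tmsb4x* to proteins best known from heart and skeletal muscle. *Tmsb4x*, thymosin beta 4, was at 131 and 125 TPM in CypD KO, 10.5 and 12.3 in WT, 18.8 and 16.1 in Control and 27.1 and 22.6 in labelled CypD OE. *Palld*, palladin, which bundles actin in stress fibres, was at 63.03 and 63.4 TPM in CypD KO, 3.03 and 2.77 in WT, 4.83 and 3.5 in Control and 0.4 and 0.31 in labelled CypD OE. For *Palld* the labelled CypD OE libraries were close to 0 and did not overlap Control. *Hspb6*, a small heat shock protein of muscle, was at 110.3 and 129 TPM in CypD KO, 18.97 and 17.7 in WT, 17.01 and 15.2 in Control and 14.5 and 16.6 in labelled CypD OE. *Hspb7*, a related protein of heart muscle, was at 8.23 and 8.78 TPM in CypD KO, 0.42 and 0.23 in WT, 0.19 and 0.14 in Control and 0.23 and 0.38 in labelled CypD OE. Outside CypD KO *Hspb6* was well above 0 in every library, whereas *Hspb7* was under 1 TPM. *Fgd3*, an exchange factor for the GTPase CDC42, was at 11.7 and 10.9 TPM in CypD KO, 0.32 and 0.33 in WT, 0.26 and 0.26 in Control and 0.2 and 0.17 in labelled CypD OE. *Cdc42ep1*, an effector of the same GTPase, was at 47.04 and 46.6 TPM in CypD KO, 9.2 and 9.82 in WT, 5.85 and 7.33 in Control and 10.7 and 10.9 in labelled CypD OE. *Lmod1*, leiomodin 1, an actin nucleator of smooth muscle and a target of the factor SRF, was at 8.85 and 7.95 TPM in CypD KO, 0.74 and 0.75 in WT, 1.19 and 0.98 in Control and 0.56 and 0.33 in labelled CypD OE. The other 7 of this class were *Vamp5*, *Dysf*, *Sh3bgr*, *Fblim1*, *Chrnb1*, *Cgnl1* and *Coro6*, with ratios from 4.12 for *Cgnl1* to 9.80 for *Dysf*. Among them *Dysf*, dysferlin, and *Chrnb1*, a subunit of the acetylcholine receptor, are known from skeletal muscle.

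Of the 9 interferon-stimulated genes, *Ifitm3* was abundant and the other 8 were at 28.7 TPM or less in CypD KO and lower still elsewhere. *Ifitm3*, a membrane protein that restricts virus entry, was at 138 and 129 TPM in CypD KO, 19.4 and 22.4 in WT, 13.2 and 12.3 in Control and 14.3 and 11.99 in labelled CypD OE. *Ddx58*, the RNA sensor RIG-I, was at 27.9 and 28.7 TPM in CypD KO, 1.96 and 2.16 in WT, 2.21 and 1.79 in Control and 2.63 and 3.19 in labelled CypD OE. *Oas1a*, an oligoadenylate synthetase that is activated by double-stranded RNA, was at 5.65 and 5.53 TPM in CypD KO, 0 and 0.21 in WT, 0.06 and 0 in Control and 0 and 0 in labelled CypD OE. These include sensors of RNA, and the next are PYHIN proteins, a family with members that bind DNA. *Ifi211* was at 16.5 and 16.1 TPM in CypD KO, 0 and 0 in WT, 0 and 0.06 in Control and 0.26 and 0 in labelled CypD OE. *Ifi204* was at 6.61 and 5.73 TPM in CypD KO, 0 and 0 in WT, 0 and 0 in Control and 0.12 and 0 in labelled CypD OE. PYHIN genes lie in a cluster of similar copies on chromosome 1, so reads may be divided among them and each single value is uncertain. *Xaf1*, a partner of the apoptosis inhibitor XIAP, was at 18.9 and 18.9 TPM in CypD KO, 0.81 and 2.48 in WT, 1.21 and 1.27 in Control and 0.1 and 0.67 in labelled CypD OE. *Trim30a* was at 13.5 and 13.4 TPM in CypD KO, 0.03 and 0.05 in WT, 0.16 and 0.08 in Control and 0.82 and 0.87 in labelled CypD OE. *Trim30a*, a TRIM protein of the interferon response, was close to 0 in WT and Control. *Isg15*, a ubiquitin-like modifier, was at 9.91 and 9.61 TPM in CypD KO, 1.43 and 0.96 in WT, 1.55 and 1.44 in Control and 0.66 and 1.3 in labelled CypD OE. *Isg20*, an exonuclease, was at 9.63 and 9.04 TPM in CypD KO, 0.43 and 0.62 in WT, 0.71 and 0.51 in Control and 0.7 and 0.51 in labelled CypD OE. In all 9 the 2 CypD KO libraries lay close together, and *Ifi211*, *Ifi204* and *Oas1a* were listed at 0 in at least 4 of the 6 other libraries.

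Promoters of 4 of these genes are shown because each carries the ISRE core near the start of the transcript, the element many interferon-stimulated genes are known to share. Each run is 150 bases of reference sequence from RefSeq (GRCm38.p6), 100 before and 50 after the annotated start, and its place was found by an exact match in GRCm39. Capitals mark the core, GAAA and GAAA with any 2 bases between, on either strand, where overlapping matches run together. *Isg15* is at chr4:156285226-156285375 (minus strand), *Oas1a* at chr5:121045539-121045688 (minus), *Ifi211* at chr1:173740563-173740712 (minus) and *Ddx58* at chr4:40239776-40239925 (minus).
Isg15: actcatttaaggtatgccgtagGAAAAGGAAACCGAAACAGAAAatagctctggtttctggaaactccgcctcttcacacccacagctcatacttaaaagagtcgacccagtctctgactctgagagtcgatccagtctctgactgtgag
Oas1a: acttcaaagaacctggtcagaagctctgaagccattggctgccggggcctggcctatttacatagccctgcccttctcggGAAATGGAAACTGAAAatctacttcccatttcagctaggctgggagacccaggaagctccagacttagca
Ifi211: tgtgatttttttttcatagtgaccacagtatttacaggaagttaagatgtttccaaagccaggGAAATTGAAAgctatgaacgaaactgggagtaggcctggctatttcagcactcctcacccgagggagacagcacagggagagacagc
Ddx58: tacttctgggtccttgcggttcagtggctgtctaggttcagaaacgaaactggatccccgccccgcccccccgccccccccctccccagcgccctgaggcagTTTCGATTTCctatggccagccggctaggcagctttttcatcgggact
In *Isg15* 3 overlapping matches form a run that starts 78 bases before the start, in *Oas1a* 2 overlapping matches start 20 bases before it, in *Ifi211* the match starts 37 bases before it, and in *Ddx58* it lies just after the start on the opposite strand. *Ifitm3* and *Trim30a* also carry the core near a start and are not shown. No match was found in the promoters of *Xaf1* and *Isg20*, and *Ifi204* had no promoter to search.

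Stress genes sat near the 4-fold limit, with ratios from 4.04 to 5.14. *Gadd45a*, a growth arrest and DNA damage gene, was at 37.7 and 37.3 TPM in CypD KO, 5.08 and 7.11 in WT, 5.45 and 6.61 in Control and 6.23 and 7.27 in labelled CypD OE. *Atf3*, a transcription factor of stress responses, was at 24.3 and 24.3 TPM in CypD KO, 5.17 and 5.59 in WT, 5.48 and 4.15 in Control and 4.57 and 4.36 in labelled CypD OE. *Btg2*, an antiproliferative p53 target, was at 12.5 and 12.5 TPM in CypD KO, 2.75 and 3.09 in WT, 1.26 and 1.66 in Control and 1.74 and 2.12 in labelled CypD OE. The CypD KO libraries agreed closely for these 3 and the other groups were all above 1 TPM. *Ddit3*, CHOP, a factor of the integrated stress response, stands in the table as 2 entries, and the entry on the list has only 105 exonic bases, all of them within the main entry. The short entry was at 410.0 and 283 TPM in CypD KO, 68.9 and 0 in WT, 0 and 40.2 in Control and 0 and 20.3 in labelled CypD OE, so it was uneven within each group. The main *Ddit3* entry was at 86.8 and 88.1 TPM in CypD KO and at 29.9 to 50.2 TPM elsewhere. With both entries summed the ratio was 3.31, under the limit, and 87 genes remained.

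The 3 histone genes are replication-dependent genes with near-identical copies, so reads may be divided among copies and their values are uncertain. *H2bc4* was at 76.7 and 70.7 TPM in CypD KO, 8.64 and 7.77 in WT, 9.22 and 7.27 in Control and 9.22 and 8.3 in labelled CypD OE. *H2ac19* was at 23.6 and 17.4 TPM in CypD KO, 0 and 0 in WT, 0 and 0.43 in Control and 1 and 1.37 in labelled CypD OE. *H4c8* was at 11.4 and 9.41 TPM in CypD KO, 0 and 0 in WT, 1.39 and 1.13 in Control and 0.31 and 0.61 in labelled CypD OE. Both *H2ac19* and *H4c8* were listed at 0 in WT.

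Enzymes on the list included 2 phosphodiesterases, which break down cyclic nucleotides. *Pde1b*, which is activated by calcium and calmodulin, was at 12.5 and 10.3 TPM in CypD KO, 0.06 and 0.28 in WT, 0.24 and 0.34 in Control and 0.03 and 0 in labelled CypD OE. *Pde8a*, which is specific for cyclic AMP, was at 19.2 and 15.9 TPM in CypD KO, 1.25 and 1.97 in WT, 2.4 and 2.58 in Control and 0.46 and 0.27 in labelled CypD OE. *Sphk1*, the kinase that makes sphingosine 1-phosphate, was at 47.2 and 44.2 TPM in CypD KO, 5.37 and 4.36 in WT, 2.7 and 2.48 in Control and 7.71 and 6.57 in labelled CypD OE. *Pde1b* was close to 0 outside CypD KO, whereas *Sphk1* differed between the other groups. *Ampd3*, an AMP deaminase, *B3galt5*, a galactosyltransferase, and *Dglucy*, D-glutamate cyclase, had ratios of 4.39, 4.75 and 4.85. The 5 genes in no class were *Lrrc27* (67.2 and 64.03 TPM in CypD KO, 6.84 and 7.11 in WT, 13.2 and 9.22 in Control and 7.4 and 3.61 in labelled CypD OE), *Fam214b*, *Wincr1*, *Olfr289-ps1* and *1700007K13Rik*, with ratios from 4.21 to 10.2.

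RefSeq promoters, 250 bases before to 50 after a start, were found for 72 of the 88 genes (108 promoters, several of which belong to the same gene and can overlap). The other 16, among them *Fn1*, *Ccn2*, *Thbs1*, *Col1a1*, *Cd109*, *Adamts4*, *Clcf1*, *Ctsh*, *Edil3*, *H2bc4*, *Ifi204*, *Olfr289-ps1*, *Sh3bgr* and *Tnfrsf11b*, were not analysed here. The promoters of the listed genes were poor in CpG: the observed to expected CpG ratio had a median of 0.48 against 0.76 over the 12233 promoters of all genes tested, and 65.7% were under 0.6 against 29.6%. Of all 32851 mouse promoters, 64.2% were under 0.6. The ISRE core was in 12 of the 108 promoters (11.1%) against 2.78% of those of all genes tested. It was found in 11 genes, of which *Isg15*, *Oas1a*, *Ifi211*, *Ddx58*, *Ifitm3* and *Trim30a* are in the interferon class and *Bdnf*, *Ctso*, *Hspb6*, *Pde1b* and *Serpinb9* are not. The AP-1 site TGANTCA, bound by FOS and JUN proteins, was in 15 promoters (13.9%) against 4.79%, and GGAATG, bound by TEAD proteins, in 23 (21.3%) against 11.99%. The HIF core ACGTG was in 25 (23.1%) against 26.0%. Among promoters with a CpG ratio under 0.6, the shares were 14.1% against 3.94% for the ISRE core, 16.9% against 8.77% for AP-1, 26.8% against 16.9% for TEAD and 22.5% against 17.8% for the HIF core. Over all mouse promoters they were 3.44%, 7.81%, 14.7% and 19.6%. Both strands were searched, ACGTG also lies within the E-box CACGTG, and a match of a few letters is no measurement of binding. The E-box CACGTG (9.26% against 10.1%), the cAMP response element TGACGTCA (3.70% against 3.04%), the NF-kappaB core, GGGA and CC with any 4 bases between (26.9% against 26.2%), the antioxidant core TGACNNNGC (12.04% against 14.2%) and TATAAA (8.33% against 6.94%) were also counted.

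**Figure D2:**
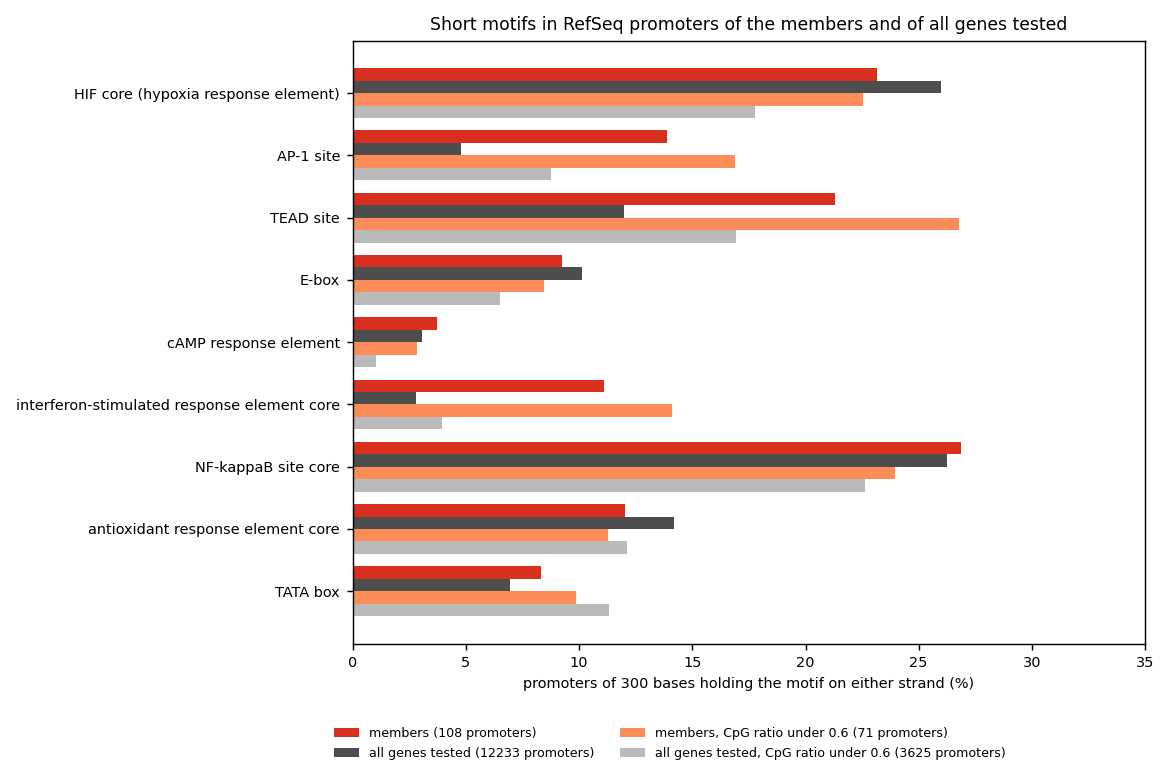
Share of 300-base promoters that hold each short motif on either strand, for the listed genes (red, 108 promoters) and all genes tested (dark grey, 12233), and for the CpG-poor promoters of each (orange, 71, and light grey, 3625). The red bars for the ISRE core (11.1%), AP-1 (13.9%) and TEAD (21.3%) exceed the dark grey ones (2.78%, 4.79% and 11.99%), while for the HIF core the red bar (23.1%) is shorter than the dark grey one (26.0%). Among CpG-poor promoters the order for the HIF core is the reverse, with the orange bar at 22.5% and the light grey one at 17.8%.

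AP-1 sites within 100 bases before the start are shown for 5 of the genes in the same form, with TGANTCA in capitals. The 5 are *Plaur* (proteolysis), *Serpinb8* (proteolysis), *Palld* (actin), *Sphk1* (enzyme) and *Ecm1* (matrix). They lie at chr7:24161808-24161957 (plus strand), chr1:107517636-107517785 (plus), chr8:62044124-62044273 (minus), chr11:116422563-116422712 (plus) and chr3:95646832-95646981 (minus).
Plaur: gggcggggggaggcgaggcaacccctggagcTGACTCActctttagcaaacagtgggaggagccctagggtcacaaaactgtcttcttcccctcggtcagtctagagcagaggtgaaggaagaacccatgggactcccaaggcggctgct
Serpinb8: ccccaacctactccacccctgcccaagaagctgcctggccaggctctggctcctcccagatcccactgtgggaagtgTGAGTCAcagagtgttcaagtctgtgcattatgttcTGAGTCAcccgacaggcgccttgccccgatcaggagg
Palld: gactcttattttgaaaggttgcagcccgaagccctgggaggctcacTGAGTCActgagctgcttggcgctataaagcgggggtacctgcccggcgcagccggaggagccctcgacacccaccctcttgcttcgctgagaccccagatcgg
Sphk1: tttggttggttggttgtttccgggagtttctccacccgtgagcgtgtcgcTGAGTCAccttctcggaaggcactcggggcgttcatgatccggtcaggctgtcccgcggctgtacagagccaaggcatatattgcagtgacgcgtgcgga
Ecm1: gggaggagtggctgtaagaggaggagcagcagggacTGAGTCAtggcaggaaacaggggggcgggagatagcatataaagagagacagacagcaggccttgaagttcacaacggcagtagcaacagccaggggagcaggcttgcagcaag
The sites start 69, 23, 54, 50 and 64 bases before the start, and *Serpinb8* holds a further site after it. *Palld* and *Sphk1* each have several annotated promoters, and in each gene the site within this distance was in the promoter shown. *Cd68*, *Fblim1* and *Xaf1* also hold a site within 100 bases before a start and are not shown.

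In the genome, 14 of the 88 genes (15.9%) lie on chromosome 7, which holds 7.31% of the genes tested, 9 (10.2%) on chromosome 1 with 5.68% of the genes tested, and 8 (9.09%) on each of chromosomes 3 and 4, with 5.28% and 6.18%. Chromosome 13 holds 6 (6.82%) against 3.74%, chromosome 2 holds 4 (4.55%) against 8.07%, and chromosome 18 holds 0 against 2.49%. Some lie side by side: 14 pairs are within 500 kb of each other, and in 7 of them no other tested gene lies between. *Epha2*, *Hspb7* and *Fblim1* are each paired with one another in this count. Whether 14 pairs are more than other tested genes would give was not tested. *S100a4* and *S100a6* are 6785 bases apart, *Sh3bgr* and *B3galt5* 6560, and *Serpinb9* and *Serpinb9b* 9458. Pairs of the same family (*S100a4* and *S100a6*, *Serpinb9* and *Serpinb9b*, *Ifi204* and *Ifi211*) are related copies, whereas *Sh3bgr* and *B3galt5*, *Itga5* and *Pde1b*, *Isg20* and *Mfge8*, and *Epha2* and *Hspb7* are not. *Tgfb1* and *Axl* lie 52028 bases apart on chromosome 7, with *Ccdc97* and *Hnrnpul1* between them.

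The rule set a ceiling on the other 6 libraries but not their order, and differences among WT, Control and labelled CypD OE were tested. The ceiling limits how far a listed gene can rise in any of these groups. The counts of listed genes are therefore shaped in part by the rule, and the shares over all genes tested are not. A linear model (limma) was fitted to log2(TPM + 1) of 13526 genes in all 8 libraries, with Benjamini-Hochberg adjusted p under 0.05 as the threshold, and differences below are on that scale, which understates changes of low genes. All 88 genes passed the filter of 1 TPM in 2 libraries, but 23 of them only through CypD KO. Between Control at 1% O2 and WT at 21% O2, 8 of the 88 were higher and 10 lower, while 12.1% of all genes tested were higher and 12.1% lower. All 18 were among the 65 genes that pass the filter without CypD KO, of which they make up 12.3% and 15.4%, against 12.6% and 12.6% of the 12950 genes tested that pass it in the same way. Within 1 of 0 lay 61 of the 65 and 12597 of the 12950. *Lgals3* was higher in Control by 1.31 ± 0.077 (SE), adjusted p = 0.000124. *Fn1* was higher by 0.55 ± 0.053 (SE), adjusted p = 0.000802, and *H4c8* by 1.17 ± 0.18 (SE), adjusted p = 0.00454. *Serpinb9b* (0.87), *Tmsb4x* (0.57), *Ctso* (0.55), *Lamb1* (0.29) and *Cd109* (0.18) were the others that were higher. Genes of the secreted and membrane classes were also among those that fell: *Fxyd5* was lower in Control, with a difference of -1.42 ± 0.17 (SE), adjusted p = 0.00207. *Ifitm3* was lower (-0.67 ± 0.10 (SE), adjusted p = 0.00485), and so was *Sphk1* (-0.70 ± 0.12 (SE), adjusted p = 0.00774). *Tgfb1* (-0.77), *Btg2* (-0.68), *Ltbp4* (-0.50), *Thbs1* (-0.50), *Cdc42ep1* (-0.48), *Adamts4* (-0.32) and *Tnfrsf12a* (-0.22) completed the 10. Of these 18 calls, 7 held in each of the 15 alternative settings that were run: *Lgals3*, *Fn1* and *H4c8* among the higher and *Fxyd5*, *Ifitm3*, *Sphk1* and *Thbs1* among the lower.

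Between labelled CypD OE and Control, both at 1% O2, 18 of the 88 were higher and 17 lower, while 19.0% of all genes tested were higher and 18.3% lower. Of the 65 that pass the filter without CypD KO, 16 were higher and 15 lower, shares of 24.6% and 23.1%. Of the 12950 genes that pass it in the same way, 19.8% were higher and 19% lower. Within 1 of 0 lay 54 of the 65 and 12220 of the 12950. The other 4 called genes, *Ltbp1*, *Pdgfc*, *Trim30a* and *Lmod1*, passed the filter only through CypD KO. The comparison shares the Control libraries with the one before, so the values stand side by side and were not set against each other. *Fxyd5* was higher in labelled CypD OE by 2.14 ± 0.17 (SE), adjusted p = 0.000184. *Ccn2* was higher by 1.33 ± 0.12 (SE), adjusted p = 0.000256, and *Thbs1* by 1.10 ± 0.060 (SE), adjusted p = 3.40e-05. *Sphk1* (1.18), *H2ac19* (0.86), *Plaur* (0.75) and *Tgfb1* (0.68) followed, so that matrix genes, the urokinase receptor and the TGF-beta ligand were among those that rose. The call of *Plaur* held in 6 of 15 alternative settings, that of *H2ac19* in 10 of 15 and that of *Tgfb1* in 11 of 15. *Trim30a* also had a difference of 0.72, but between levels under 1 TPM, 0.16 and 0.08 TPM in Control and 0.82 and 0.87 TPM in labelled CypD OE. Genes of several classes fell, including other matrix and TGF-beta genes. *Palld*, of the actin class, was lower (-1.92 ± 0.14 (SE), adjusted p = 0.000122). *Col1a1* was lower (-1.44 ± 0.21 (SE), adjusted p = 0.00237), and *Lgals3* was lower (-1.13 ± 0.077 (SE), adjusted p = 8.90e-05). *S100a4* (-1.55), *Pde8a* (-1.36), *Cd68* (-1.14), *Ecm1* (-1.09) and *Lrrc27* (-0.95) followed. The call of *Lrrc27* held in 6 of 15 alternative settings, that of *S100a4* in 11 of 15 and that of *Ecm1* in 12 of 15. The other 10 higher genes had differences of 0.36 to 0.64 and the other 9 lower genes of -0.85 to -0.47. In each setting in which they could be fitted, 17 of the 35 calls held, among them *Fxyd5*, *Ccn2*, *Thbs1*, *Sphk1*, *Palld*, *Col1a1*, *Lgals3*, *Pde8a* and *Cd68*.

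**Figure D3:**
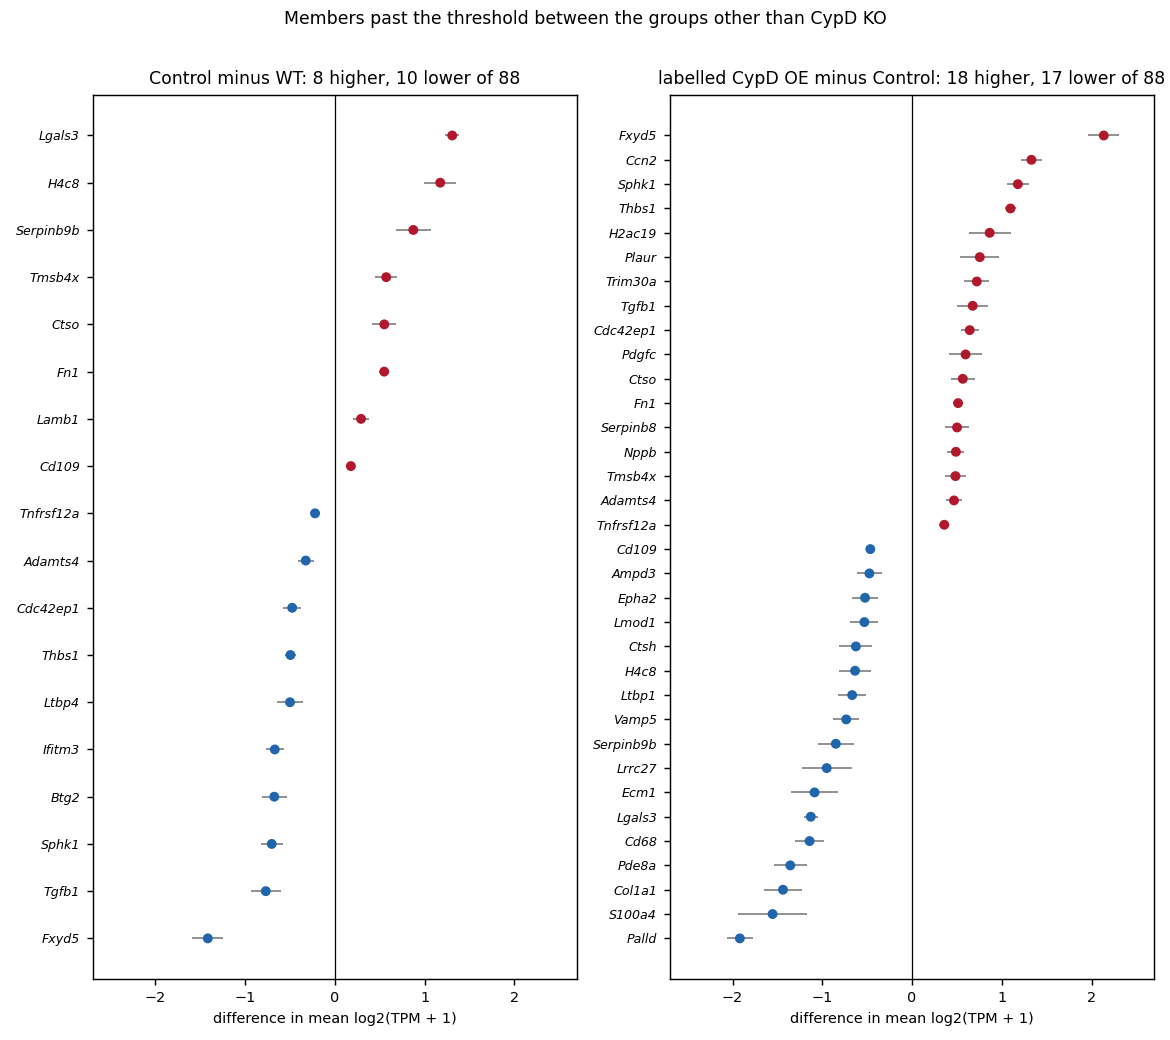
Difference in mean log2(TPM + 1), with its standard error as a bar, for the listed genes past the threshold between Control and WT (left) and between the libraries labelled CypD OE and Control (right), higher in red and lower in blue. Left, 8 are higher and 10 lower, led by *Lgals3* at 1.31 and *Fxyd5* at -1.42, and right, 18 are higher (17 of them drawn) and 17 lower, led by *Fxyd5* at 2.14 and *Palld* at -1.92.

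To see whether relatives of the listed genes behaved alike, genes of 21 fixed lists that are not among the 88 were compared between CypD KO and WT in the same model. Over all genes tested 30.1% were higher in CypD KO and 18.4% lower (23.6% and 25.8% after median-of-ratios rescaling). Of 392 list genes tested, 241 were higher and 63 lower. The lists were drawn up with earlier results of these data known, and genes that reach 4-fold over every library are left out by construction, so the counts describe the lists and do not test them.

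The lists differed in how many of their other genes stood above WT. Of the S100 proteins and annexins, 2 were among the 88 and 14 of the 16 others tested were higher and 1 lower. *Anxa2*, annexin A2, a surface partner of S100 proteins and plasminogen, was at 705 and 690.5 TPM in CypD KO, 177 and 179.7 in WT, 412 and 431 in Control and 174 and 167 in labelled CypD OE. *S100a11* was at 1002 and 1038 TPM in CypD KO, 259.6 and 282 in WT, 326 and 333 in Control and 299 and 310.4 in labelled CypD OE. Both were already abundant in WT, and *Anxa2* was also higher in Control than in WT (1.24 ± 0.036 (SE), adjusted p = 5.47e-06). *S100a1* was at 132 and 138 TPM in CypD KO and 38.5 and 37.1 TPM in WT. Interferon-stimulated genes gave 7 of the 88, and 24 of the 29 others tested were higher and 0 lower. *Ifi27* was at 101 and 106 TPM in CypD KO, 16.1 and 12.6 in WT, 28.04 and 26.2 in Control and 12.03 and 14.4 in labelled CypD OE. *Usp18*, which removes ISG15 from proteins, was at 5.21 and 4.2 TPM in CypD KO, 0.36 and 0.25 in WT, 2.54 and 1.39 in Control and 1.68 and 0.51 in labelled CypD OE, and *Irgm1*, an immunity-related GTPase, at 30.6 and 26.7 TPM in CypD KO, 6.84 and 6.28 in WT, 5.84 and 5.38 in Control and 16.2 and 13.8 in labelled CypD OE. Antigen presentation gave 0 of the 88, while 13 of 16 were higher and 1 lower. *H2-K1*, a class I heavy chain, was at 11.7 and 16.9 TPM in CypD KO, 2.26 and 3.64 in WT, 12.3 and 15.3 in Control and 1.67 and 4.92 in labelled CypD OE. *Tapbp*, tapasin, was at 26.5 and 27.4 TPM in CypD KO, 6.41 and 6.5 in WT, 10.6 and 7.08 in Control and 8.34 and 7.25 in labelled CypD OE, and *Tap2*, a peptide transporter subunit, at 2.62 and 2.44 TPM in CypD KO, 0 and 0 in WT, 0.04 and 0.08 in Control and 0.05 and 0.28 in labelled CypD OE. *H2-K1* in Control overlapped its level in CypD KO.

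Actin and SRF target genes gave 1 of the 88, and 20 of the 25 others were higher and 1 lower. *Acta2*, smooth muscle actin, was at 4.96 and 7.99 TPM in CypD KO and was listed at 0 in all 6 other libraries. *Cnn2*, a calponin, was at 125 and 121 TPM in CypD KO, 26.8 and 24.8 in WT, 31.1 and 29.7 in Control and 32.6 and 29.7 in labelled CypD OE, and *Zyx*, zyxin, at 272 and 273 TPM in CypD KO, 59.2 and 72.9 in WT, 94.3 and 94.8 in Control and 119.5 and 117 in labelled CypD OE. EMT factors and mesenchymal markers gave 3, and 11 of the 14 others were higher and 1 lower. *Snai2*, the factor Slug, was at 20.2 and 19.6 TPM in CypD KO, 4.44 and 4.37 in WT, 5.5 and 5.99 in Control and 11.6 and 10.7 in labelled CypD OE, and *Itgb3*, integrin beta 3, at 14.9 and 15.3 TPM in CypD KO, 3.97 and 4.55 in WT, 5.02 and 5.08 in Control and 2.85 and 2.51 in labelled CypD OE. For the TGF-beta list (4 of the 88), 15 of 20 others were higher and 3 lower, including *Bmp1*, *Skil* and *Inhba* by 1.70, 1.37 and 1.29. For YAP-TEAD targets (3), 10 of 18 were higher and 1 lower, with *Myof* at 103 and 103 TPM in CypD KO, 16.4 and 14.6 in WT, 13.3 and 13.3 in Control and 26.6 and 25.2 in labelled CypD OE and *Ccn1*, a relative of *Ccn2*, at 214 and 214 TPM in CypD KO, 36.7 and 39.4 in WT, 48.9 and 50.4 in Control and 60.9 and 62.6 in labelled CypD OE. *Ankrd1* of this list was at most 0.18 TPM outside CypD KO and at 3.48 and 4.50 TPM within it. For AP-1 and immediate early factors (1 of the 88), 18 of 23 were higher and 3 lower, including *Dusp1*, *Fosl2* and *Klf4* by 2.30, 2.12 and 2.08. For p53 targets (2), 19 of 23 were higher and 0 lower, including *Ddit4*, *Plk2* and *Cdkn1a* by 2.12, 1.83 and 1.51. In Control, 1 of these 23 was higher than in WT and 16 were lower. *Ddit4* was also high in Control, at 41.45 and 42.08 TPM against 39.84 and 40.12 TPM in CypD KO and 9.3 and 7.6 TPM in WT.

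Collagens and matrix proteins (4 of the 88) had 11 of 20 others higher and 4 lower. *Spp1*, osteopontin, was at 49.7 and 47.9 TPM in CypD KO, 4.68 and 2.96 in WT, 33.5 and 31.5 in Control and 0.07 and 0.2 in labelled CypD OE, and *Loxl2*, a lysyl oxidase, at 11.6 and 12.3 TPM in CypD KO, 0.7 and 0.59 in WT, 29.3 and 31.3 in Control and 0.52 and 0.34 in labelled CypD OE. Both were also high in Control, in contrast to *Col12a1* at 5.08 and 4.52 TPM in CypD KO, 0.39 and 0.36 in WT, 0.26 and 0.46 in Control and 0.38 and 0.45 in labelled CypD OE. Matrix proteases and plasminogen activators (2) had 8 of 16 higher and 3 lower. *Plat*, tissue plasminogen activator, was at 13.5 and 12.6 TPM in CypD KO, 1.64 and 1.48 in WT, 5.24 and 4.83 in Control and 0.88 and 0.54 in labelled CypD OE, and *Plau*, urokinase, at 3.68 and 2.6 TPM in CypD KO, 0.22 and 0.18 in WT, 1.34 and 1.18 in Control and 0.54 and 0.33 in labelled CypD OE. *Mmp11*, a metalloproteinase, went the other way, at 4.41 and 4.08 TPM in CypD KO, 43.2 and 44.2 in WT, 39.9 and 42.1 in Control and 0.58 and 0.47 in labelled CypD OE. Serpins and other inhibitors (5) had 7 of 11 higher and 3 lower, with *Cst6*, a cystatin, at 218 and 204 TPM in CypD KO, 44.5 and 44.2 in WT, 37.3 and 52.4 in Control and 64.7 and 60.3 in labelled CypD OE, *Serpinb6b* higher by 1.48 and *Slpi* lower (-1.49). Replication-dependent histones (3) had 7 of 15 higher and 0 lower, including *H2ac18*, *H1f2* and *H2bc8* by 2.25, 1.70 and 1.69. NF-kappaB genes, cytokines and chemokines (0) had 12 of 21 higher and 2 lower. *Lif* was at 9.62 and 9.18 TPM in CypD KO, 0.47 and 0.4 in WT, 0.25 and 0.28 in Control and 2.46 and 2.16 in labelled CypD OE, *Tnfaip2* was higher by 2.15, and *Il33*, an alarmin, by 2.03.

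HIF targets gave 0 of the 88. A gene that is also high in Control cannot meet the rule. Of the 43 tested, 36 were higher in CypD KO than in WT and 1 lower, 38 were higher in Control than in WT and 1 lower, and 2 were higher in labelled CypD OE than in Control and 38 lower. *Bnip3*, a mitophagy receptor and HIF target, was at 258 and 249 TPM in CypD KO, 14.4 and 11.1 in WT, 311 and 307 in Control and 13.6 and 12.5 in labelled CypD OE, and *Adm*, adrenomedullin, at 15.6 and 13.2 TPM in CypD KO, 1.24 and 0.16 in WT, 20.6 and 16.7 in Control and 0.14 and 0.53 in labelled CypD OE. Thus *Bnip3* and *Adm* were high in both CypD KO and Control, and the rule leaves out genes of this kind. *S100a6*, like every listed gene, was high in CypD KO alone because the rule requires it. Pigmentation genes also gave 0 of the 88: 3 of 25 were higher in CypD KO than in WT and 16 lower, while in Control 20 were higher and 0 lower. *Kit* was at 0.92 and 1.24 TPM in CypD KO, 6.81 and 7.62 in WT, 9.07 and 9.92 in Control and 3.08 and 2.82 in labelled CypD OE, *Trpm1* at 44.3 and 38.4 TPM in CypD KO, 150.2 and 145 in WT, 374 and 348 in Control and 9.28 and 10.9 in labelled CypD OE, and *Tyr*, tyrosinase, at 167 and 147 TPM in CypD KO, 37.4 and 41.2 in WT, 74.2 and 75.5 in Control and 74.1 and 74.9 in labelled CypD OE, so *Tyr* was higher in CypD KO while *Kit* and *Trpm1* were lower. The list of the undifferentiated and neural crest state held 2 of the 88, *Axl* and *Bdnf*, and 2 of its 13 others were higher and 6 lower. *Gfra1* was higher (2.24) and the glial gene *Mbp* was lower (-3.32).

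The remaining lists gave 0 of the 88. NRF2 and glutathione genes had 9 of 30 higher and 14 lower, with *Hmox1*, heme oxygenase 1, at 192 and 193 TPM in CypD KO, 38.8 and 40.8 in WT, 51.1 and 51.3 in Control and 29.1 and 27.5 in labelled CypD OE, *Sod3* higher by 2.19, and *Gsta4* at 0 and 0 TPM in CypD KO, 8.22 and 6.6 in WT, 7.63 and 7.09 in Control and 2.25 and 1.69 in labelled CypD OE. Metallothioneins and zinc transporters had 3 of 10 higher and 0 lower (*Slc30a4*, *Slc39a14* and *Slc39a10*, by 0.61, 0.45 and 0.35). Keratins and epithelial junction genes had 3 of 5 higher and 1 lower, including *Pkp2* (2.23), *Sfn* (0.86) and *Cldn12* (-0.19). Germline and imprinted genes had 3 of 10 higher and 3 lower, with *Rhox5* (-4.15), *Mest* (-2.58) and *Peg10* (-1.18) lower.

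**Figure D4:**
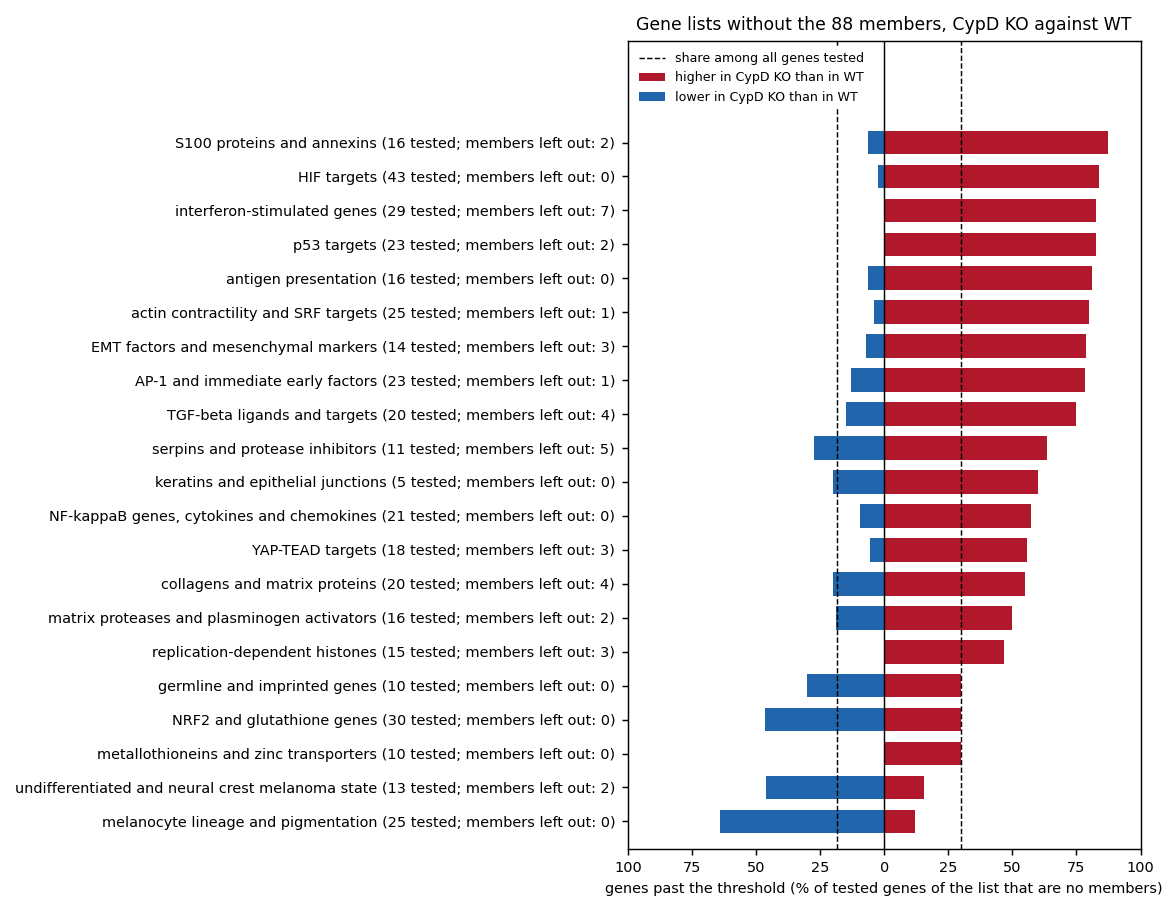
For each of the 21 gene lists without its members among the 88, the share of tested genes that were higher (red, to the right) or lower (blue, to the left) in CypD KO than in WT, with dashed lines at 30.1% and 18.4%, the shares over all genes tested. S100 proteins and annexins (14 of 16 higher) and HIF targets (36 of 43) lie at the top, and pigmentation genes (3 of 25 higher, 16 lower) at the bottom.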

How the data were processed

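RNA-seq was run on 8 libraries of B16F10 cells, 2 per group. The authors made libraries from total RNA after ribosomal depletion and sequenced paired-end reads of 150 bases. The submitters' processing notes name cutadapt 3.4, STAR 2.7.8a, RSEM 1.3.1, DESeq2 1.26.0 and GRCm39. The authors deposited TPM per gene, with the same total in every library, so a level depends on all other transcripts and the depth of a library is unknown. RSEM divides reads that match several genes. The authors' own tests used DESeq2 on read counts, which were not used here.

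The rule was applied to TPM as deposited. For tests, limma 3.58.1 (R 4.3.3) was fitted to log2(TPM + 1) of 13526 genes (1 TPM or more in 2 or more libraries), with 4 group means over all 8 libraries, a trended prior and Benjamini-Hochberg adjustment over all genes tested, and checked on simulated data. An exact permutation test of 2 against 2 libraries cannot go below p = 0.333, so none was used. Promoters came from RefSeq (GRCm38.p6) and were matched by symbol, and gene positions, biotypes and overlaps from GENCODE annotation of GRCm39.

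Values in every library are given for the 12 genes with the highest mean CypD KO level, the 12 with the largest ratio, those in a fixed list, up to 8 per direction in each test and those nearest the limit, and for up to 3 other genes per fixed list with the largest differences past the threshold. A few further genes, named for contrast or class, were chosen after their values were seen. The values of some genes are not reported here, although they stay in all counts. The genes, lists and classes were chosen with earlier results of these data known. Alternatives were another pseudocount, filter, scaling and sample set, a model without trend, a replicate block, and each library left out.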

Additional observations from a re-analysis of the deposited data

How the results depend on the processing

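Stricter or looser limits changed the number of genes most: 148 met a limit of 3 times the other libraries and 30 a limit of 8 times, and 163 met a minimum of 1 TPM against 64 with 10 TPM. After median-of-ratios rescaling 78 remained, all of them among the 88. With both Ddit3 entries summed, a setting chosen after seeing the data, 87 remained. Leaving out a library gave 89 to 102 genes and each time kept all 88, because a library less can only relax the rule.

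Between Control and WT, 8 higher and 10 lower became 5 and 5 with no filter on low values and 4 and 4 when only the 4 libraries compared were fitted. Between labelled CypD OE and Control, 17 lower became 9 with no filter, and with only the 4 libraries 18 higher and 17 lower became 11 and 10. The fit with 4 libraries has fewer residual degrees of freedom and tested 59 and 61 of the 88 genes. Without 1 library, Control minus WT gave 3 to 8 higher and 5 to 9 lower, labelled CypD OE minus Control gave 12 to 18 higher and 8 to 16 lower, and the list genes that are not among the 88 gave 204 to 241 higher and 52 to 58 lower in CypD KO. Counts moved by over 1.5 times without either WT library (5 lower in Control each), without either CypD KO library (5 higher in Control and 11 lower in labelled CypD OE each), without Control replicate 1 (3 higher and 5 lower in Control, 8 lower in labelled CypD OE), without Control replicate 2 (5 higher in Control) and without labelled CypD OE replicate 2 (9 lower). Where a group was left with 1 library, that library was assumed to vary like the other groups. No called gene changed direction in any of these settings.

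Deviations of libraries with the same replicate number were weakly correlated at most (-0.03 to 0.11, the highest for WT with CypD KO). Whether such libraries were cultured or handled together is not given, and these correlations cannot decide it. With a replicate block in the model, 6 of the 88 were higher and 8 lower in Control than in WT, 15 higher and 16 lower in labelled CypD OE than in Control, and of the other list genes 239 were higher and 59 lower in CypD KO. With 2 libraries per group and no read counts, differences between levels under about 1 TPM are uncertain. This includes calls that held in every setting in which they were fitted, such as that of *Trim30a* between labelled CypD OE and Control.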

Other observations

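Some genes stayed off the list only by the 5 TPM minimum although they were nearly absent elsewhere. *Acta2*, smooth muscle actin, was at 4.96 and 7.99 TPM in CypD KO and listed at 0 in all 6 other libraries. *Angpt4*, an angiopoietin, was at 4.99 and 5.09 TPM in CypD KO and at 0 to 0.13 TPM elsewhere, and *Wnt9a*, a WNT ligand, at 4.90 and 4.89 TPM in CypD KO and 0.08 to 0.34 TPM elsewhere. When CypD KO replicate 1 was left out, *Acta2* and *Angpt4* joined the list together with *Wt1*, a transcription factor, and 8 other entries.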
